A study of Mus musculus with 16 samples.

Results

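The genes described here are the 7 that encode the pore-forming effectors of mitochondrial apoptosis and the parts of the apoptosome: Bax, Bak1, Bok, Apaf1, Cycs, Casp9 and Diablo. They were chosen by name, and all 7 were listed among the 17128 genes of the pDC table and the 17721 genes of the cDC table. The tables hold RNA-seq of dendritic cells (DCs) sorted from the spleens of C57BL/6 mice of 6 to 8 weeks. Plasmacytoid DCs (pDCs), the main producers of type I interferon, were sorted as CD11c+ SiglecH+ cells. Conventional DCs were CD11c+ SiglecH- MHC II+, with type 1 (cDC1s, which cross-present antigen to CD8 T cells) being CD24+ CD172a- and type 2 (cDC2s, which prime CD4 T cells) being CD24- CD172a+. Trim33 fl/fl mice without Cre are called WT. Trim33 fl/fl Itgax-Cre mice, called cKO, delete the transcriptional cofactor gene Trim33 in cells in which the Itgax (CD11c) promoter is active, and both genotypes carry the floxed alleles. Each genotype gave 3 pDC, 2 cDC1 and 3 cDC2 libraries, so that 16 were sequenced. Each library was a biological replicate that pooled several mice, with more mice in a cKO library than in a WT one.

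In mitochondrial apoptosis, BH3-only proteins such as BIM engage BAX and BAK1, which open the outer mitochondrial membrane. Cytochrome c (Cycs) leaves through the opening and binds APAF1, which assembles into the apoptosome and activates procaspase-9 (Casp9). SMAC (Diablo) leaves with it and relieves the inhibition of caspases by XIAP. The study asked whether DCs without TRIM33 die more readily, so the comparison of interest is cKO against WT within each subset.

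Levels are in TPM (a gene's length-corrected share of all transcripts in a library, a scale on which genes of different length can be compared). The pDC and cDC libraries were deposited in separate tables that list different genes, and pDCs were not tested against cDCs. Depth, estimated from the steps between low values, was 17.82 to 20.24 M reads per library, and 3 reads on a transcript of 2000 bases corresponded to 0.140 to 0.186 TPM. Replicate libraries correlated across genes at a Pearson r of 0.991 to 0.997. Trim33 was lower in every cKO library than in every WT library of its subset, at 11.7 to 16.5 against 20.6 to 23.8 TPM in pDCs, 7.71 to 7.88 against 15.5 to 18.2 in cDC1s and 7.13 to 8.07 against 17.2 to 20.6 in cDC2s. Of the 7 markers of each subset, none was at 0 in its own libraries, and the summed pDC markers lay between 16753 and 18755 TPM in pDCs and between 129 and 256 TPM in cDCs. The summed cDC2 markers in pDCs were between 709 and 821 TPM, against 1290 to 1480 TPM in cDC2s themselves. Cd209a was the most abundant of these cDC2 markers in pDCs, and the study lists it among pDC-associated genes. A gene was called when limma gave an adjusted p of at most 0.01 and a log2 fold change of at least 0.5 in size, on the log2(TPM + 1) scale.

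In WT cells, Bax and Bak1 were the most abundant of the 7 transcripts in each subset, Apaf1 and Casp9 the least abundant above the floor, and Bok was at the floor. In WT pDCs, Bak1 averaged 113 ± 12.2 TPM and Bax 101 ± 4.25 TPM (SD, n = 3), a difference within the spread of Bak1. Diablo at 47.0 ± 0.407 TPM and Cycs at 39.1 ± 0.769 TPM followed, then Apaf1 at 23.4 ± 1.51 TPM and Casp9 at 20.1 ± 1.53 TPM. In WT cDC1s the order was Bak1 (185 ± 7.59 TPM), Bax (178 ± 14.2), Cycs (102 ± 10.7), Diablo (54.1 ± 5.29), Apaf1 (36.3 ± 3.73) and Casp9 (29.4 ± 6.02, SD, n = 2). In WT cDC2s it was Bak1 (153 ± 19.4 TPM), Bax (149 ± 13.0), Cycs (61.1 ± 8.38), Diablo (57.1 ± 4.59), Apaf1 (29.9 ± 2.23) and Casp9 (23.6 ± 4.33, SD, n = 3). The libraries of Bak1 and Bax overlapped in both subsets, as did those of Cycs and Diablo in WT cDC2s, whereas those of Cycs and Diablo stood apart in WT cDC1s. Bax ranked above 89.8% of all genes listed in WT pDCs, above 95.8% in WT cDC1s and above 94.4% in WT cDC2s. Casp9, the initiator caspase, ranked above 62.2%, 74.9% and 68.7% of genes in the same groups.

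Between the conventional subsets in WT mice, Cycs was the member called. Its level was 94.4 and 109 TPM in the WT cDC1 libraries and 64.0, 67.7 and 51.7 TPM in the WT cDC2 libraries, with no overlap. On the log2 scale WT cDC1s exceeded WT cDC2s by 0.73 (SE 0.15, adjusted p = 0.00268), and 1 of the 6 members tested was called. Across all 11411 genes tested, 31.7% were called in this comparison (10.9% higher) and the median log2 fold change was -0.17. Bak1 (0.28), Apaf1 (0.27), Bax (0.26) and Casp9 (0.31) had log2 fold changes with adjusted p between 0.0489 and 0.158. The WT cDC1 libraries lay wholly above the WT cDC2 libraries for 4 of the 6 members (Bak1, Bax, Apaf1 and Cycs), beside 20.8% of all genes tested. Diablo had a log2 fold change of -0.08 (95% interval -0.34 to 0.19), and its sign turned when values were scaled by median of ratios or quantile-normalized. The Cycs call was lost without WT cDC1 replicate 2, where its log2 fold change was 0.63 and its adjusted p 0.0300.

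**Figure D1:**
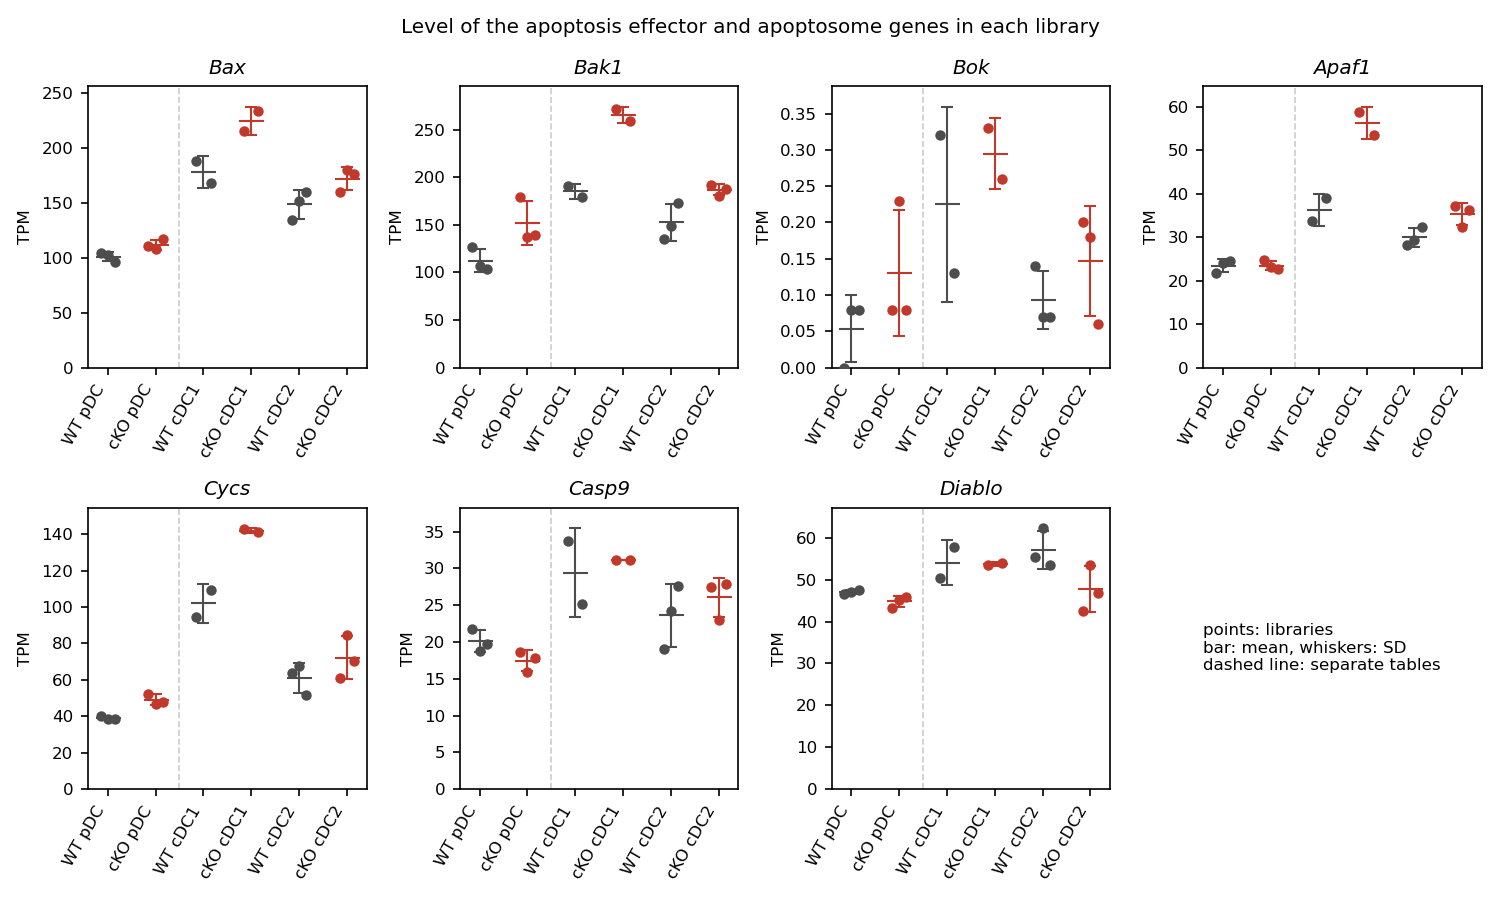
TPM of each of the 7 genes (vertical axis, from 0) in each library of the 6 groups (horizontal axis), with WT in grey, cKO in red, and the mean and SD as bars. All cKO points of Bax and Bak1 lie above the WT points of their subset, Apaf1 stands out in cKO cDC1s at 53.6 and 58.8 TPM, and Bok stays at or below 0.33 TPM.

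Bak1 and Bax, the effectors, were higher in every cKO library than in every WT library of the same subset, in all 3 subsets. Only Bak1 in cDC1s was called. Bak1 (gene ID 12018, GRCm38.p6 chr17:27019812-27028627, minus strand) encodes BAK1, which sits in the outer mitochondrial membrane of healthy cells. In pDCs it was at 127, 107 and 104 TPM in WT libraries and at 179, 138 and 139.7 TPM in cKO libraries. The cKO library with 179 TPM stood above the other two, and the WT library with the same replicate number was likewise the highest of its group. This was a change of 0.43 on the log2 scale (SE 0.12, adjusted p = 0.0921), and 5.77% of the genes tested in pDCs had a larger one. The sample titles state no pairing, but same-numbered pDC libraries deviated together from their group means. With the replicate number as a block the adjusted p of Bak1 was 0.00257, while its fold stayed under the 0.5 that a call needs.

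In cDC1s, Bak1 was at 191 and 179.8 TPM in WT and at 272 and 259.6 TPM in cKO libraries, so the groups lay 69.1 TPM apart at their nearest. On the log2 scale the change was 0.52 (SE 0.12, adjusted p = 0.00637). The median of all genes tested in cDC1s was itself shifted by 0.17, and relative to that median Bak1 was higher by 0.35. Of the genes tested in cDC1s, 22.3% had a larger log2 fold change. The call was made on the deposited TPM and on none of the other scalings, where the log2 fold change was 0.45 with FPKM, 0.42 after quantile normalization and 0.35 after median-of-ratios scaling. It was also lost without any 1 of the 4 cDC1 libraries and without cKO cDC2 replicate 1 or 3, with adjusted p between 0.0105 and 0.0542.

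In cDC2s, Bak1 was at 135, 149 and 173 TPM in WT libraries and at 192, 181 and 188 TPM in cKO libraries. The WT libraries were spread more widely than the cKO libraries, and the highest of them was 7.47 TPM below the lowest cKO library. Bak1 thus had a log2 fold change of 0.30 here (SE 0.10, adjusted p = 0.0523), and 15.1% of the genes tested in cDC2s had a larger one. Ggnbp1, which overlaps Bak1 on the chromosome, was listed at 4.33 TPM or less in every library.

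Bax (gene ID 12028, chr7:45461695-45466903, minus strand) encodes the effector that moves from the cytosol to mitochondria when activated. In pDCs its level was 104, 102 and 96.2 TPM in WT and 110.3, 108 and 117 TPM in cKO libraries. In cDC1s it was 188 and 168 TPM in WT and 215.5 and 233 TPM in cKO libraries. In cDC2s it was 134, 152 and 159.6 TPM in WT and 160.1, 179.9 and 176 TPM in cKO libraries, so that the nearest libraries of the groups differed by 0.52 TPM. In each subset the fold change of Bax was smaller than that of Bak1, a contrast that was not tested. The log2 fold change was 0.14 in pDCs (SE 0.06, adjusted p = 0.223), 0.33 in cDC1s (SE 0.11, adjusted p = 0.0410) and 0.21 in cDC2s (SE 0.09, adjusted p = 0.141), and none was called. Larger ones were seen for 15.4%, 35.4% and 21.3% of the genes tested in these subsets.

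Groups without overlap were common in these data, which bears on the counts above. In pDCs, the cKO libraries lay wholly above the WT libraries for 10.8% of all genes tested and wholly below for 16.7%. In cDC1s, with 2 libraries against 2, the shares were 52.1% and 24.1%, and in cDC2s they were 16.3% and 19.2%. Of the 6 members tested, 3 lay wholly above in pDCs (Bax, Bak1 and Cycs), 4 in cDC1s (these and Apaf1) and 2 in cDC2s (Bax and Bak1). Casp9 and Diablo lay wholly below in pDCs, and the remaining groups of the members tested overlapped.

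Bok (gene ID 51800, chr1:93685575-93695770, plus strand), the third effector of the family, was at the floor of detection. It was listed at 0, 0.08 and 0.08 TPM in WT pDCs and at 0.08, 0.23 and 0.08 TPM in cKO pDCs. In cDC1s it was at 0.32 and 0.13 TPM in WT and 0.33 and 0.26 TPM in cKO libraries, and in cDC2s at 0.06 to 0.20 TPM in the 6 libraries. These values correspond to between 0 and 5 reads per library. Bok did not reach the mean of 1 TPM needed for testing, so 6 of the 7 members were tested, and no fold change is given for it.

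Apaf1, the scaffold of the apoptosome, had the largest fold change of the members in cDC1s and one of 0.00 in pDCs. Apaf1 (gene ID 11783, chr10:90989311-91082743, minus strand) was at 33.6 and 38.9 TPM in WT cDC1s and at 58.8 and 53.6 TPM in cKO cDC1s. The lower cKO library was 14.7 TPM above the higher WT library. This gave a log2 change of 0.62 (SE 0.12, adjusted p = 0.00304), or 0.45 relative to the median of all genes. Of the genes tested in cDC1s, 16.7% had a larger one. Apaf1 remained called with FPKM (0.54), and the fold fell below the limit after median-of-ratios scaling (0.45) and with quantile-normalized values (0.43), at adjusted p of 0.00747 and 0.00844. Without WT cDC1 replicate 1, cKO cDC1 replicate 1 or cKO cDC1 replicate 2 the adjusted p rose to 0.0298, 0.0371 and 0.0143, and the call was lost.

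In pDCs, Apaf1 was at 21.7, 24.1 and 24.45 TPM in WT and at 24.7, 23.1 and 22.6 TPM in cKO libraries. The groups overlapped, and the log2 fold change was 0.00 (95% interval -0.18 to 0.19). In cDC2s it was at 28.1, 29.2 and 32.4 TPM in WT and at 37.2, 32.3 and 36.2 TPM in cKO libraries, where 1 cKO library fell below the highest WT library. The log2 fold change was 0.23 (SE 0.10, adjusted p = 0.131). The difference of the cKO effect between cDC1s and cDC2s was 0.39 on the log2 scale (SE 0.16), with an unadjusted p of 0.0312 and an adjusted p of 0.124 by limma, so it did not pass. Ikbip, a gene that runs in the opposite direction from the same start region and overlaps Apaf1 there, was not called in any subset, with log2 fold changes of -0.03, 0.42 and 0.18 in pDCs, cDC1s and cDC2s.

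Cycs (gene ID 13063, chr6:50562563-50566569, minus strand) encodes cytochrome c, which carries electrons in the respiratory chain and triggers the apoptosome once in the cytosol. In pDCs it was at 39.9, 38.7 and 38.5 TPM in WT and at 52.5, 46.6 and 48.0 TPM in cKO libraries. The WT libraries were within 1.44 TPM of each other and the lowest cKO library was 6.64 TPM above the highest of them. The log2 fold change was 0.32 (SE 0.07, adjusted p = 0.0440, or 0.0143 with the replicate block), which did not reach the limits of a call. In cDC1s, Cycs was at 94.4 and 109 TPM in WT and at 143 and 141 TPM in cKO libraries, again without overlap (log2 fold change 0.48, SE 0.17, adjusted p = 0.0443). In cDC2s the WT libraries had 64.0, 67.7 and 51.7 TPM and the cKO libraries 61.2, 84.8 and 70.25 TPM, and the groups overlapped (log2 fold change 0.23, SE 0.14, adjusted p = 0.260). RefSeq names 3 processed copies of this gene (Cycs-ps1, Cycs-ps2 and Cycs-ps3), so its reads may have been shared with them and its level is uncertain to that extent.

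Casp9 and Diablo did not share the higher values. Casp9 (gene ID 12371, chr4:141793612-141815978, plus strand) was at 21.8, 18.8 and 19.7 TPM in WT pDCs and at 18.7, 15.9 and 17.8 TPM in cKO pDCs, with each cKO library below each WT library. Its log2 fold change there was -0.20 (95% interval -0.42 to 0.02, adjusted p = 0.289). In cDC1s the WT libraries, at 33.7 and 25.2 TPM, enclosed both cKO libraries at 31.2 TPM. There the log2 fold change was 0.10 (95% interval -0.32 to 0.51), and its sign turned when values were scaled by median of ratios or quantile-normalized. In cDC2s, Casp9 was at 19.0, 24.25 and 27.6 TPM in WT and 27.4, 23.0 and 27.8 TPM in cKO libraries (log2 fold change 0.15, 95% interval -0.19 to 0.49).

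Diablo (gene ID 66593, chr5:123511330-123524164, minus strand) was at 46.7, 46.9 and 47.5 TPM in WT pDCs and at 43.35, 45.3 and 45.8 TPM in cKO pDCs. The cKO values were all lower, and the log2 fold change was -0.07 (95% interval -0.20 to 0.07). In cDC1s it was at 50.35 and 57.8 TPM in WT and 53.4 and 54.0 TPM in cKO libraries (log2 fold change -0.01, 95% interval -0.29 to 0.28). In cDC2s it was at 55.5, 62.25 and 53.5 TPM in WT and 42.6, 53.6 and 46.9 TPM in cKO libraries. One cKO library reached the lowest WT library, and the log2 fold change was -0.26 (SE 0.11, adjusted p = 0.116).

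**Figure D2:**
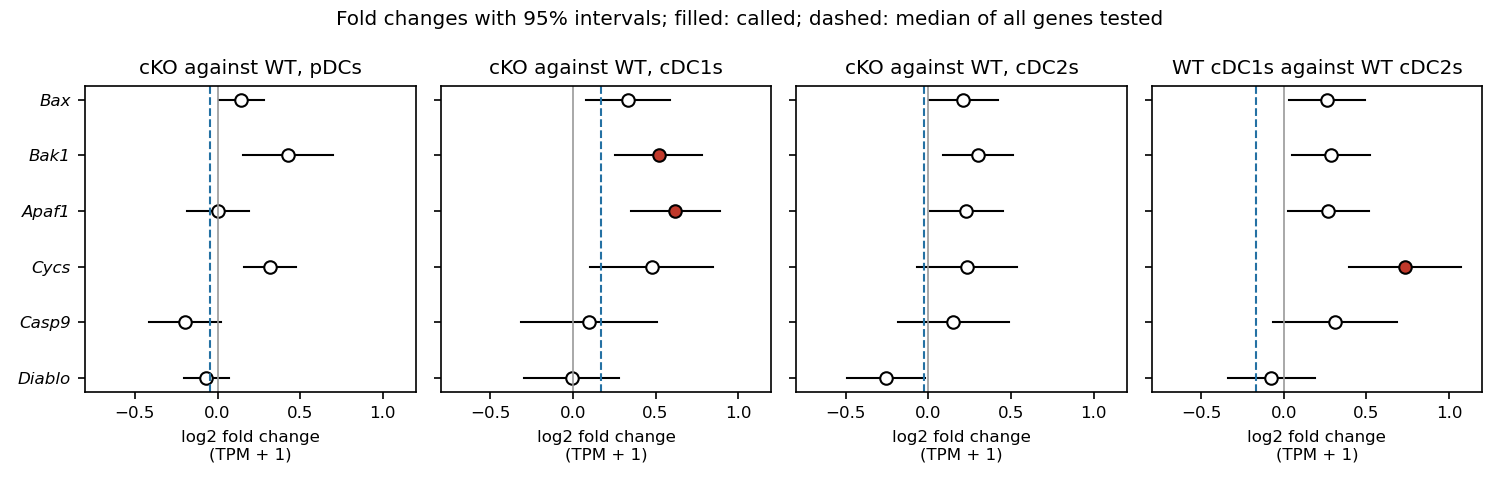
Log2 fold change (horizontal axis, log2(TPM + 1) scale) of the 6 members tested, with 95% intervals, in the 3 comparisons of cKO with WT and in WT cDC1s against WT cDC2s. Filled points passed both limits, namely Bak1 (0.52) and Apaf1 (0.62) in cDC1s and Cycs (0.73) between the WT subsets, and the dashed line is the median of all genes tested, at 0.17 in cDC1s.

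The members called are set here beside the share called among all genes. In pDCs limma called 0 of 6 members, beside 1.05% of all 11299 genes tested. An unadjusted p below 0.05 was reached by 3 of the 6 and by 2352 of the 11299. In cDC1s 2 of 6 were called, both higher, beside 22.4% of 11411 genes, and 15.8% of genes were called in the higher direction. There 4 of the 6 and 5541 of the 11411 reached an unadjusted p below 0.05. In cDC2s limma called 0 of 6, beside 7.15%, and 4 of the 6 and 3896 of the 11411 reached that level. The median log2 fold change of the 6 members was 0.07 in pDCs, 0.41 in cDC1s and 0.22 in cDC2s, where the medians of all genes were -0.05, 0.17 and -0.03. For the difference between the effects in cDC1s and cDC2s, 0 of 6 were called by limma, beside 2.56% of genes. Its unadjusted p was below 0.05 for 1 of the 6 and for 3499 of the 11411. The intervals of that difference ran from -0.12 to 0.56 for Bak1, from -0.21 to 0.45 for Bax and from -0.23 to 0.73 for Cycs, so a difference of either sign was not excluded by them.

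**Figure D3:**
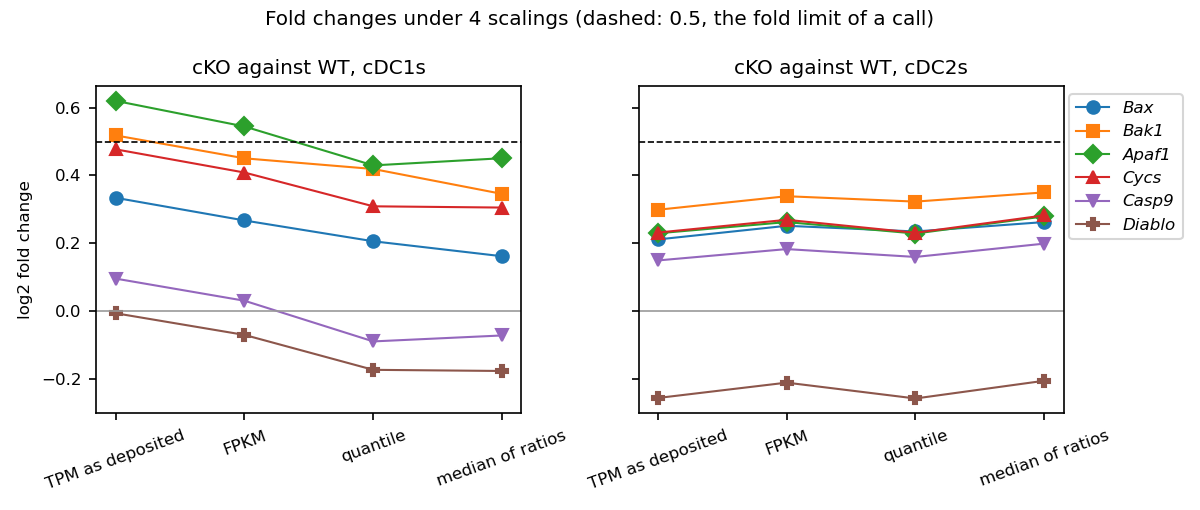
Log2 fold change of cKO over WT (vertical axis) of the 6 members tested in cDC1s and cDC2s under 4 scalings of the same libraries (horizontal axis), with the dashed line at the fold limit of 0.5. In cDC1s Bak1 went from 0.52 to between 0.35 and 0.45 and Apaf1 from 0.62 to between 0.43 and 0.54, while in cDC2s no member reached 0.5 under any of the 4.

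Genes of the cell cycle were higher in the same cKO libraries, and their summed level is given for that reason. The 17 listed genes (among them Mki67, Pcna and the Mcm helicase genes) summed to 382 to 453 TPM in WT and 586 to 732 TPM in cKO pDCs, to 848 to 1065 against 2439 to 2449 TPM in cDC1s, and to 1064 to 1275 against 1766 to 2134 TPM in cDC2s. By limma, 8, 14 and 8 of the 17 were called higher in the 3 subsets and 0 lower, beside 0.814%, 15.8% and 3.59% of all genes called higher. Of the marker lists of other cells, neutrophil genes summed to 8.86 to 29.3 TPM in WT and 29.5 to 138 TPM in cKO pDCs, and to 1.53 to 17.1 against 22.7 to 42.3 TPM in cDC1s, where Ly6g was at 0 in both WT libraries. T-cell genes, 5 of 6 listed, summed to 8.84 to 14.4 against 30.9 to 51.8 TPM in pDCs. Monocyte and macrophage genes summed to 111 to 137 TPM in WT and 197 to 217 TPM in cKO cDC1s, where pDC markers went from between 148 and 161 to between 253 and 256 TPM and cDC1 markers from between 2144 and 2196 to between 1778 and 1911 TPM. B-cell sums (11.1 to 25.5 against 21.0 to 81.6 TPM) and erythroid sums (1029 to 3684 against 818 to 3880 TPM) overlapped between the pDC groups, B-cell sums in cDC1s were 33.5 to 42.7 against 49.5 to 57.9 TPM, and NK-cell sums stayed at or below 9.14 TPM in every library. Erythroid genes summed to 7234 TPM in WT cDC2 replicate 2, against at most 1564 TPM in the other cDC2 libraries. In cDC2s pDC markers summed to 129 to 164 TPM in WT and 195 to 228 TPM in cKO libraries, and cDC1 markers to 476 to 579 against 386 to 466 TPM, in both cases without overlap. Monocyte and macrophage genes summed to 4939 to 5600 TPM in WT and 5776 to 5895 TPM in cKO pDCs, also without overlap. They were led by Ly6c2, which the study lists among pDC-associated genes. Sums without overlap between the pDC groups were also those of pDC markers (16753 to 16893 against 17518 to 18755 TPM), cDC1 markers (287 to 313 against 239 to 256 TPM) and cDC2 markers (783 to 821 against 709 to 739.7 TPM). Neutrophil sums (8.0 to 34.1 against 19.0 to 82.4 TPM) and monocyte and macrophage sums (486 to 660 against 597 to 843 TPM) overlapped between the cDC2 groups. The part of these differences in the members' levels was not tested, and in bulk RNA a shift in the cells present and a shift in RNA per cell cannot be told apart.

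The stretch before the start is shown for the 4 members whose cKO libraries lay wholly above WT in cDC1s. The same was true of 52.1% of all genes tested there, and shared regulation of the 4 was not tested. Windows were the 250 bases before the RefSeq transcript start on GRCm38.p6, which for Bax lies a few bases inside the gene's outer end. The searched motifs, on both strands, were the PU.1 (ETS) core GAGGAAGT, the NRF1 core CGCATGCG, the CREB site TGACGTCA, the E-box CACGTG, and the E2F sites TTTGGCGC and TTTCGCGC. Capitals mark the matches, and the Bak1 line shows the PU.1 core as read on the other strand, with 30 bases around it since the longer Bak1 transcript of GENCODE has its 5′ UTR there. The Apaf1 line leaves out the parts of its window that lie in the 5′ UTRs of Apaf1 and Ikbip. The Bax window holds no GENCODE exon, but its last few bases, which the E-box reaches, lie within the RefSeq bounds of Bax. The Cycs window overlaps only exons of the noncoding gene 5430402O13Rik.
Bax chr7:45466899-45467148 (minus strand): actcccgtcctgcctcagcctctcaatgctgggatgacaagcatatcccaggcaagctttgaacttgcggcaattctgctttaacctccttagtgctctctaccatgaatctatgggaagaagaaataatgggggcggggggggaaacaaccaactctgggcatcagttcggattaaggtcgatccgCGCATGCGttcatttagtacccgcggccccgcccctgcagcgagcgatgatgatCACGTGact
Bak1 chr17:27028631-27028660 (minus strand): ggccaccgagaACTTCCTCtagagggagct
Apaf1 chr10:91082771-91082939 (minus strand): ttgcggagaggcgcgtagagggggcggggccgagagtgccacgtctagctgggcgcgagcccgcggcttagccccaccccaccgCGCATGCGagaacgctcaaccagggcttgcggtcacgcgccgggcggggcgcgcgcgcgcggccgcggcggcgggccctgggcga
Cycs chr6:50566570-50566819 (minus strand): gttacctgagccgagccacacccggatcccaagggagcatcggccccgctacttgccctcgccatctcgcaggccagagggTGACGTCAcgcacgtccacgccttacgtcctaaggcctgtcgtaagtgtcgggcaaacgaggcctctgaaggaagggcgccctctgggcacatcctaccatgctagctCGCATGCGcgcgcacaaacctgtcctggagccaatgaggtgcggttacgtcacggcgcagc

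The NRF1 core was in the windows of 3 of the 7 members, Bax, Apaf1 and Cycs, and in 1.55% of all 32851 promoter windows. It lay 63 to 56 bases before the start of Bax, 112 to 105 before that of Apaf1 and 61 to 54 before that of Cycs. NRF1 is known as a regulator of genes of the respiratory chain, Cycs among them. The PU.1 core, the ETS motif of a factor that DCs depend on, was 22 to 15 bases before the start of Bak1 and in 2.44% of all windows. The CREB site was in Cycs alone (1.55% of windows) and the E-box in Bax alone (6.02%), and neither E2F site was in any member's window (0.417% and 0.256% of all windows). The windows of Bok, Casp9 and Diablo held none of the searched letters. A match describes the letters only, and the motifs were chosen with these sequences in view.

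Ratios of members within a library do not change when all its values are multiplied by the same factor. Quantile normalization is not a scaling of that kind. The ratio of Bax to Bak1 was 0.901 ± 0.0693 in WT pDCs and 0.745 ± 0.115 in cKO pDCs (SD, n = 3 each), with overlapping libraries. In cDC1s it was 0.987 and 0.934 in WT and 0.793 and 0.899 in cKO libraries, lower in both cKO libraries, and in cDC2s the groups overlapped between 0.832 and 1.02. The ratio of Apaf1 to Casp9 was 0.998 and 1.55 in WT cDC1s and 1.89 and 1.72 in cKO cDC1s, without overlap, and overlapped in pDCs and cDC2s. The ratio of Cycs to Apaf1 was 1.57 to 1.84 in WT pDCs and 2.01 to 2.13 in cKO pDCs, whereas in cDC1s it was 2.81 in both WT libraries and 2.43 and 2.63 in cKO libraries. No test was run on these ratios.

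**Figure D4:**
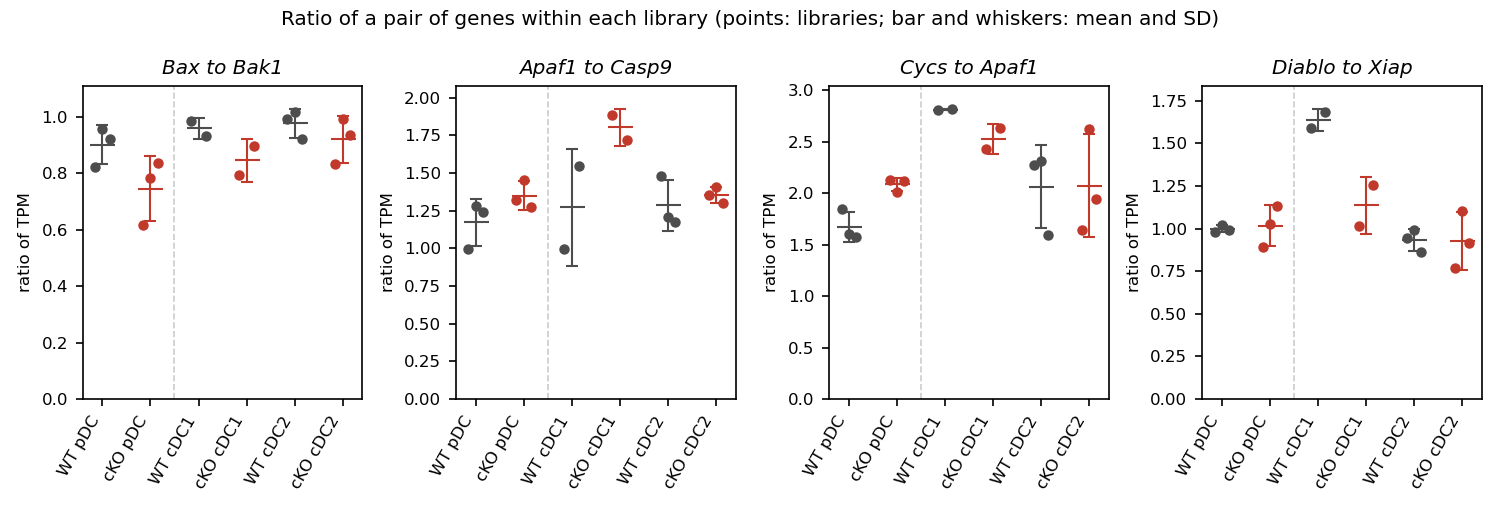
Ratio of the TPM of a pair of genes within each library (vertical axis, from 0) for the 6 groups (horizontal axis), with WT in grey, cKO in red, and mean and SD as bars. Cycs to Apaf1 is higher in cKO pDCs (2.01 to 2.13) than in WT pDCs (1.57 to 1.84), and Diablo to Xiap is lower in cKO cDC1s (1.02 and 1.25) than in WT cDC1s (1.59 and 1.68).

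The ratio of Diablo to Xiap, the inhibitor that SMAC binds, was 1.59 and 1.68 in WT cDC1s and 1.02 and 1.25 in cKO cDC1s. In that subset Xiap rose from 31.6 and 34.4 to 52.5 and 43.0 TPM (log2 fold change 0.51, SE 0.12, adjusted p = 0.00697). In pDCs the ratio was 0.982 to 1.02 in WT and 0.892 to 1.13 in cKO libraries, and in cDC2s 0.860 to 0.989 and 0.767 to 1.10. Xiap had a log2 fold change of -0.09 in pDCs (adjusted p = 0.576) and -0.24 in cDC2s (adjusted p = 0.111). Its effect in cDC1s exceeded that in cDC2s by 0.75 on the log2 scale (SE 0.15, adjusted p = 0.0158), which missed the limit of 0.01. The Xiap call in cDC1s was lost under each of the 3 other scalings (log2 fold change 0.34 to 0.44) and without WT cDC1 replicate 1 or 2, cKO cDC1 replicate 1 or cKO cDC2 replicate 3, with adjusted p up to 0.0811.

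The genes that act before and after the members were described from 7 lists of 68 genes, of which 63 were tested in each table. In pDCs 1 of them was called, higher, beside 1.05% of all genes. With the replicate block 4 were called (Bcl2l11, Bid and Birc5 higher, Septin4 lower), beside 2.96% of all genes. In cDC1s 22 were called, 14 higher and 8 lower, beside 22.4%. After median-of-ratios scaling or quantile normalization 7 were called higher and 9 lower, beside 18.7% and 17.7% of all genes. With 1 library left out, 5 of the 22 cDC1 calls remained in each of the 10 fits (Bmf, Parp1, Birc3, Vdac1 and Trp53inp1) and 17 were lost in at least 1 of them. Another scaling ended 8 of the 22, namely those of Bcl2, Bcl2l1, Dffa, Xiap, Birc5, Opa1, Aifm1 and Cyc1. In cDC2s 3 were called, 2 higher and 1 lower, beside 7.15%. The medians of the 63 were 0.03, 0.24 and 0.08 in the 3 subsets. Some lists below are given with the genes reaching an unadjusted p below 0.05. Over all genes, that level was reached by limma for 2352 of 11299 in pDCs and 3896 of 11411 in cDC2s.

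Among 6 BH3-only genes tested, Bcl2l11 (BIM) had higher values in every cKO library of every subset. In pDCs it was at 13.6, 21.0 and 13.2 TPM in WT and at 33.3, 34.3 and 33.0 TPM in cKO libraries, an adjusted p of 0.0132 that missed the limit (0.00191 with the replicate block and 0.00238 without WT pDC replicate 2, where it was called). In cDC1s it was at 50.7 and 37.6 TPM in WT and at 82.7 and 82.5 TPM in cKO libraries, and in cDC2s at 12.4, 13.9 and 15.7 TPM against 71.7, 60.5 and 67.6 TPM. It was called in cDC1s (log2 fold change 0.90, adjusted p = 0.00159), a call lost without WT cDC1 replicate 2 or either cKO cDC1 library, at adjusted p up to 0.0170. The cDC2 values give the largest fold of any gene in these lists in cDC2s (log2 fold change 2.17, SE 0.13, adjusted p = 6.38e-06). Pmaip1 (NOXA) fell in cDC1s from 341 and 648 to 95.1 and 94.9 TPM, and Bmf fell by 1.10 on the log2 scale, so that the 3 BH3-only genes called in cDC1s were 1 higher and 2 lower. Bik and, in cDCs, Hrk were listed below the level needed for testing, at 0.81 TPM or less.

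Of 7 prosurvival BCL2 family genes, whose products hold BAX and BAK1 in check, 4 were called in cDC1s, 1 higher and 3 lower. Bcl2 rose from 3.27 and 7.64 to 15.4 and 11.4 TPM (log2 fold change 1.23, adjusted p = 0.00711). Its call was lost in 7 of the 10 fits that left out 1 library, with adjusted p up to 0.0680, and without WT cDC1 replicate 1 its log2 fold change was 0.72. The Bcl2l1 call was lost in 7 of the 10 as well, with adjusted p up to 0.0691. Bcl2l1 (BCL-XL) fell by 0.82 on the log2 scale, and Bcl2a1a and Bcl2a1b fell by 1.11 and 1.92, with the reservation that the Bcl2a1 genes are near-identical copies among which reads may have been split. In pDCs and cDC2s limma called 0 of the 7, although 2 in each had an unadjusted p below 0.05. The median of the list in cDC1s was -0.82, against 0.17 for all genes.

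Of 6 executioner caspases and substrates, Parp1 and Dffa rose in cDC1s (log2 fold changes 1.23 and 0.56) and Parp1 rose in cDC2s (0.52), while limma called none in pDCs, where 2 had an unadjusted p below 0.05. The Parp1 call in cDC2s was lost in 9 of the 10 fits that left out 1 library, with adjusted p up to 0.0444, and remained only without WT cDC2 replicate 3. The Dffa call was lost in 5 of the 10. Parp1 encodes a DNA repair enzyme that executioner caspases cleave, and Dffa the inhibitor of the caspase-activated DNase. Of 7 IAPs (inhibitors of apoptosis) and their antagonists, Xiap and Birc5 rose and Birc2 and Birc3 fell in cDC1s, by 1.28 and 1.07 on the log2 scale. Birc5 had a log2 fold change of 0.93 in cDC1s (adjusted p = 0.00925), which was 0.57 without WT cDC1 replicate 1, and its call there was lost in 7 of the 10 fits that left out 1 library. Birc5 (survivin), which also serves in cell division, was the gene called in pDCs, at 2.89, 2.88 and 3.24 TPM in WT and 31.4, 19.9 and 11.7 TPM in cKO libraries (log2 fold change 2.36, SE 0.29, adjusted p = 0.00683). Its call was lost without any 1 of the WT pDC libraries or without cKO pDC replicate 2, with adjusted p up to 0.0383.

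Of 9 genes of the mitochondrial membrane, 3 rose in cDC1s, namely Vdac1 (0.81), Opa1 (0.64) and Aifm1 (0.54), which encode a channel of the outer membrane, a shaper of the cristae in which cytochrome c is held, and apoptosis-inducing factor. Opa1 fell below the fold limit with quantile-normalized values (0.44) or when scaled by median of ratios (0.47), and Aifm1 under all 3 other scalings (0.35 to 0.46). Both calls were also lost without WT cDC1 replicate 1 or either cKO cDC1 library. Of 16 respiratory chain partners of cytochrome c, Uqcrc1 (0.71) and Cyc1 (0.65), both of complex III, rose in cDC1s. These were the 2 of the 16 called there, beside 22.4% of all genes. The medians of this list were 0.07, 0.20 and 0.14 in pDCs, cDC1s and cDC2s, where those of all genes were -0.05, 0.17 and -0.03. The log2 fold changes of Cycs itself were larger (0.32, 0.48 and 0.23). Neither list had a call in pDCs or cDC2s by limma, with 1 and 3 mitochondrial membrane genes and 2 and 5 partners having an unadjusted p below 0.05.

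Of 12 genes tested among p53 and its targets, a list that bears on Bax and Apaf1 because both are known p53 targets, 3 rose and 1 fell in cDC1s. Phlda3, Pidd1 and Aen rose by 1.16, 1.14 and 1.03 on the log2 scale, and Trp53inp1 fell from 33.4 and 28.1 to 7.24 and 6.14 TPM (log2 fold change -2.04, SE 0.13, adjusted p = 1.07e-05). Trp53inp1 fell in cDC2s as well (-0.73, adjusted p = 0.00201), and in pDCs limma called none of the 12, of which 3 had an unadjusted p below 0.05. The median of the list was 0.02 in pDCs, 0.25 in cDC1s and -0.01 in cDC2s. In cDC1s Trp53 itself (0.52), Mdm2 (0.02) and Cdkn1a (-0.72) were not called. Pmaip1 and Bbc3 were counted with the BH3-only genes and not here, with log2 fold changes of -2.30 (called) and -0.54 (not called) in cDC1s. Perp and Eda2r were below the level needed for testing.

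**Figure D5:**
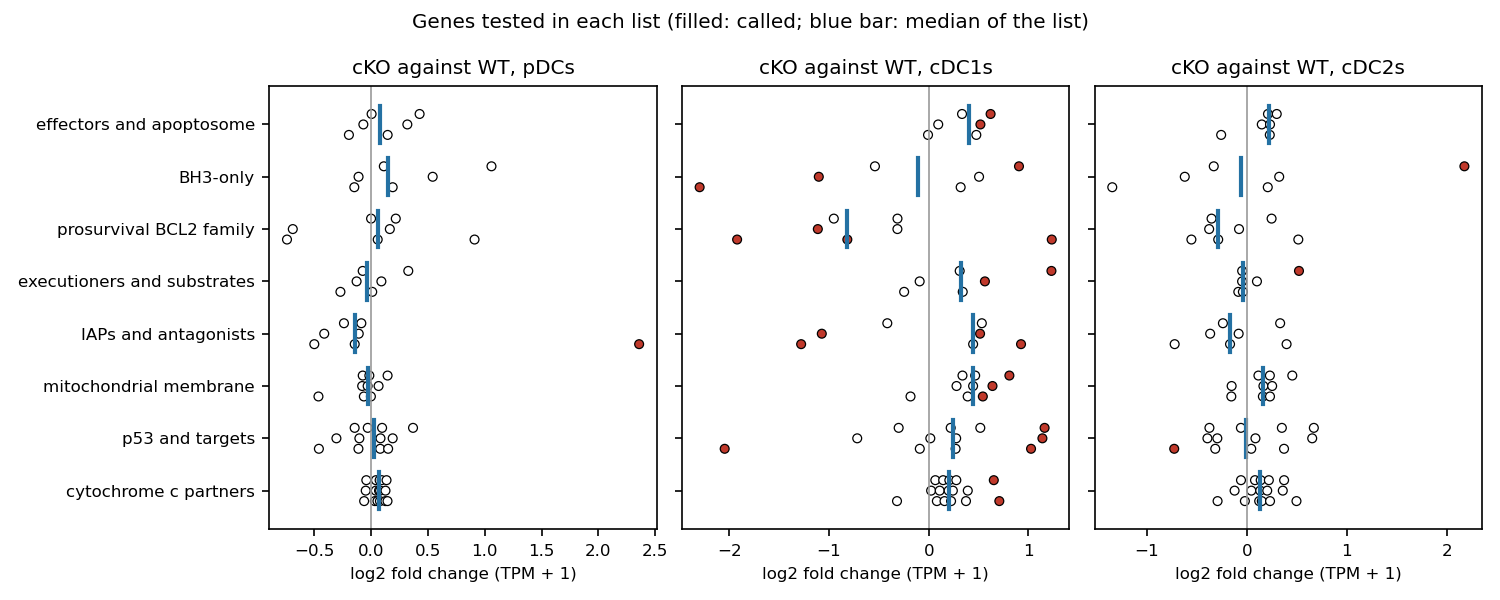
Log2 fold change of cKO over WT (horizontal axis, its range differing between panels) of each gene tested, by list (vertical axis), in the 3 subsets, with called genes filled and the list's median as a blue bar. Called genes lie on both sides of 0 in cDC1s in the BH3-only, prosurvival, IAP and p53 lists, and Birc5 (2.36) and Bcl2l11 (2.17) stand apart in pDCs and cDC2s.

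Across the 10 cDC libraries, the genes whose log2(TPM + 1) values ran most like a member's were found by Pearson r, as a description, since group means shared by many genes drive these values. Bak1 was followed most closely by Ttll12 (0.991), Wdr4 (0.990) and Mtch1 (0.989), Apaf1 by Dgkg (0.993), Lman1 (0.990) and Pmpca (0.989), and Cycs by Psmb7 (0.994), Eif2s1 (0.993) and Anxa1 (0.986). Bax was followed by Lrrc42 (0.984), Smdt1 (0.979) and Psmb5 (0.970), and Casp9 by Selplg (0.985) and Dhrs11 (0.969). Diablo had weaker company, with Tiprl at 0.912, Mzt1 at 0.886 and Gnpnat1 at 0.857. Among the members, Bak1 ran with Apaf1 (0.956) and Bax (0.943), whereas Diablo had an r between -0.351 and 0.206 with each of the others over the same 10 libraries.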

How the data were processed

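RNA of sorted splenic DCs was sequenced as single-end reads of 50 bases. The authors cleaned reads with SOAPnuke, mapped them to transcripts with Bowtie2 2.2.5 and quantified genes with RSEM 1.2.12 (the submitters' processing notes also name HISAT2 2.0.4 and mm10), and they deposited TPM and FPKM values. The transcript release is not given in the sources used here, and counts were not used here. The deposited TPM values are scaled within each library, so a change of many genes in one direction shifts all others. FPKM served as an alternative scaling.

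Gene IDs were matched to RefSeq symbols (GRCm38.p6) for 17079 of 17128 pDC and 17667 of 17721 cDC genes. limma 3.58.1 (R 4.3.3, lmFit and eBayes with trend) was fitted to log2(TPM + 1) for genes with a mean of at least 1 TPM, with 6 libraries in the pDC fit and all 10 in the cDC fit, a log-scale model because the values are not counts. Tests were two-sided, and adjusted p-values are Benjamini-Hochberg over all genes tested. The script was tested on simulated data. Groups were taken from the sample titles. The titles number the replicates but state no pairing. Same-numbered pDC libraries deviated together from their group means (r of 0.310, 0.391 and 0.206), so the replicate block is given for pDCs. This was not so in cDC1s (-0.233) or cDC2s (-0.249, 0.253 and -0.165). Depth was estimated from the steps between low FPKM values and covers counting error only.

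The 7 members, the gene lists and the motifs were chosen with earlier results of these data known. Named are the members, up to 4 called genes of each list with the largest change, Bcl2l11 and Xiap, and for each member the 3 genes most like it, with 1 of these not reported here. Mki67, Pcna, Trim33, Ikbip, Ggnbp1 and the other genes named outside this rule were chosen after their values were seen. Promoter sequences came from RefSeq tables for GRCm38.p6 (all 7 members matched) and exon overlaps from GENCODE. The alternatives were another pseudocount (0.1), no filter, 3 other scalings, no trend, a fit of each subset's groups alone, the replicate block, a looser threshold and leaving out each library.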

Additional observations from a re-analysis of the deposited data

Results flagged for a closer look

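The effect of the cKO on Bcl2l11 was smaller in cDC1s than in cDC2s, by -1.27 on the log2 scale (SE 0.20, adjusted p = 0.00507 by limma), and this difference between the subsets was tested directly. In cKO cells the level was 82.6 ± 0.141 TPM in cDC1s (SD, n = 2) and 66.6 ± 5.66 TPM in cDC2s (SD, n = 3), while WT cDC1s had 44.1 ± 9.26 TPM and WT cDC2s 14.0 ± 1.63 TPM. The call was lost with the replicate block (adjusted p = 0.0217) and in 6 of the 10 fits that left out 1 library, namely those without WT cDC1 replicate 1, either cKO cDC1 library, WT cDC2 replicate 2 or cKO cDC2 replicate 1 or 3, with an adjusted p of at most 0.0346.

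Trp53inp1 fell further in cDC1s than in cDC2s, by -1.32 on the log2 scale (SE 0.17, adjusted p = 0.00210 by limma), and the fits without WT cDC1 replicate 1 or cKO cDC1 replicate 2 lost this call, with an adjusted p of at most 0.0151.

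The ratio of Cycs to Apaf1 was higher in every cKO pDC library (mean log2 ratio higher by 0.32) and lower in both cKO cDC1 libraries (-0.15) than in WT, and this opposite move was not tested.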

How the results depend on the processing

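The fold changes of single members in 5 comparisons were recomputed 504 times under the alternatives, and 470 kept their sign and their side of the call limits, 19 lost a call and 15 changed sign. Many of these refits could not move a fold, such as a cDC1 fold when a cDC2 library was left out. The 470 thus include folds that were fixed in advance. Of the members, 2 were called in cDC1s, 0 after median-of-ratios scaling, after quantile normalization or with the replicate block, 1 with FPKM, without the trend or with the crossed pairing added after seeing the data, and 4 at an adjusted p of 0.05 with no fold limit. At that looser limit 1 was called in pDCs and 2 between the WT subsets. The share of all genes called at it was 39.6% in cDC1s, 4.55% in pDCs and 48.7% between the WT subsets. Under the other settings just named, the share of all genes called in cDC1s lay between 16.6% (replicate block) and 22% (no trend). Leaving out 1 library gave 0 to 2 in cDC1s and 0 to 1 between the WT subsets. Of the pathway genes, 1 was called in pDCs, 0 without the filter or the trend, 4 with the replicate block, 6 at the looser limit and 0 to 1 with a library left out. In cDC1s 22 became 14 without the filter and 5 (without cKO cDC1 replicate 1) to 23 with a library left out. In cDC2s 3 became 5 after quantile normalization, 16 at the looser limit and 1 to 6 with a library left out. Among all genes in pDCs, 0.14% were called without the filter, 0.496% without the trend, 2.96% with the replicate block and 4.55% at the looser limit. In cDC1s the share was 12.1% without the filter. In cDC2s it was 8.68% after quantile normalization and 19.9% at the looser limit. The causes were not tested.

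Signs turned only for values that had not passed. After median-of-ratios scaling and quantile normalization these were Casp9 in cDC1s (-0.072 and -0.090), Bax in the difference between the subsets (-0.10 and -0.029) and Diablo between the WT subsets (0.12 and 0.031), and after the former alone Bak1 in the difference (-0.0044). With a library left out, Apaf1 in pDCs ranged from -0.048 to 0.035, Casp9 in cDC1s from -0.11 to 0.30 and in the difference from -0.26 to 0.15, and Diablo in cDC1s from -0.105 to 0.091 and between the WT subsets from -0.17 to 0.021. Over all genes, 1806 were called higher and 749 lower in cDC1s as deposited, 1067 and 1067 after median-of-ratios scaling and 1060 and 962 after quantile normalization. In cDC2s 410 and 406 became 578 and 379 after median-of-ratios scaling and 524 and 335 with FPKM. With the replicate block, the adjusted p in cDC1s was 0.0140 for Bak1 and 0.0115 for Apaf1, and no member was called in the other comparisons of cKO with WT, as without it. It was not fitted to the comparison of WT subsets. Of 801 refits of named pathway genes 178 lost a call and 0 changed sign. Bok, at 5 reads or fewer in a library, is limited by depth. With 2 libraries a group, a fit without 1 cDC1 library assumes that the lone library varies like the other groups.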
